A study of Mus musculus musculus x Mus musculus castaneus with 8 samples.

Results

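The comparison described here is what 5azadC did to gene expression in fibroblasts that were also given VX680. It sets the 2 libraries of cells treated with both drugs against the 2 libraries of cells treated with VX680 alone, 4 of the 8 libraries in the series, over all 12643 genes with enough reads to test. The cells were tail fibroblasts of a female F1 mouse with 1 Mus musculus musculus and 1 Mus musculus castaneus parent. Reads over sequence variants can thus be assigned to a mus or a cas allele. Total RNA was sequenced from 4 groups of 2 libraries, namely cells given solvent only (untreated, called WT in the labels), 5azadC, VX680, or 5azadC+VX680. All cells grew for 72 h on 15 cm plates, drugs went in 24 h after plating, and the volume of the solvent DMSO was matched between groups. Drug doses, the animal's age, the number of animals or clones behind the cells and any transgene they carried are not in the labels. The labels leave unsaid whether the 2 replicates of a group come from separate cultures; a p-value here thus measures only how far these samples spread, which may be technical. Per the series title, the study dealt with the joint action of DNA methylation and Aurora kinases on the silent X chromosome.

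5azadC (5-aza-2'-deoxycytidine) is a cytidine analogue that is built into DNA during replication and traps DNA methyltransferases there, so that methylation is lost as cells go on dividing. Genes that fibroblasts keep silent through promoter methylation, among them many germline genes and some endogenous retroviruses, can then be transcribed, and double-stranded RNA from such repeats can set off the interferon response. VX680 inhibits Aurora kinases, which cells need to build the spindle and to divide after mitosis. Cells exposed to it often copy their DNA again without dividing and can arrest with active p53.

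The combination libraries held 6908503 and 6946619 reads in genes and the VX680 libraries 9862392 and 7209664. Levels are given as CPM, read counts scaled to a common library size by TMM, always in the order VX680 replicates 1 and 2, then combination replicates 1 and 2. Log2 changes are combination minus VX680, ± the standard error of the edgeR fit, and a gene was called, or said to rise or fall, when its adjusted p (edgeR quasi-likelihood test, Benjamini-Hochberg over all genes tested) was under 0.05. Replicates spread by 3.02 (VX680) and 2.74 (combination) times counting error, as chi-square per degree of freedom, against 7.50 (untreated) and 19.9 (5azadC), and all 4 groups share 1 estimate of the spread in the fit. Of 16 fibroblast markers 14 were above 1 CPM in at least 1 of the 4 libraries, Col1a1 and Vim among them; Tcf21 had no read and Fap stayed under 1 CPM. Marker lists of other cell types were mixed. Under 1 CPM in all 4 libraries were 6 of 9 leukocyte, 4 of 9 endothelial, 6 of 12 skeletal muscle, 3 of 9 chondrocyte, 4 of 6 melanocyte, 3 of 7 adipocyte and 9 of 22 epithelial markers, and among them Ptprc, Tie1, Myog, Acan, Tyr, Adipoq and Krt5 had at most 2 reads in any library. Other members were well above that with VX680, such as Eng at 110 and 99.5, Flt1 at 81 and 87.2, Lpl at 62.2 and 64.6, Cebpa at 47.4 and 43.3, Mitf at 38.5 and 34, Acta1 at 25.4 and 27.8 and Cd68 at 13.7 and 14.6 CPM. The ribosomal RNA precursor Rn45s stood at 18266 and 22164 CPM with VX680 and 33503 and 35544 CPM with both drugs (log2 0.77 ± 0.13, adjusted p = 0.0045). Malat1, an abundant nuclear RNA, went the other way (log2 -0.39 ± 0.09, adjusted p = 0.017). What part RNA composition has in the results below was not tested.

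Adding 5azadC to VX680 changed 822 genes, 6.50% of those tested: 310 rose (2.45%) and 512 fell (4.05%). At least 2-fold changes came to 133 rises (1.05%) and 100 falls (0.791%), and at least 8-fold changes to 53 rises and 1 fall. Rises included interferon-stimulated, antigen presentation, germline and p53 target genes, and falls included collagens, other matrix genes and genes of cholesterol synthesis. Of the genes that rose, 63 had under 1 CPM with VX680 alone; genes that low enter the test only through another group where they are higher and could hardly be called as falls, so nothing is read from their direction. The median change over all genes tested was -0.0012 in log2. Since these are bulk samples, fewer cells that express a gene and less of its RNA per cell cannot be told apart.

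How many genes pass depends on the libraries in the fit. Leaving out a compared library changes the estimate of the spread and also leaves 1 library in its group, and these were not told apart. Leaving out 1 compared library left 99 calls (without VX680 replicate 1), 163 (without VX680 replicate 2), 133 (without combination replicate 1) or 118 (without combination replicate 2). Leaving out either 5azadC library instead gave 1545, with all 822 kept, and the 4 compared libraries by themselves gave 2057.

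Without VX680 the same drug had moved far more genes: 2855 rose (22.6%) and 2477 fell (19.6%) between untreated and 5azadC libraries, which share no library with the combination and VX680 groups. Of the 310 genes that rose on top of VX680, 271 had also risen with 5azadC alone (87.4% of the 310 and 9.49% of the 2855). Of the 512 that fell, 341 had also fallen alone (66.6% of the 512 and 13.8% of the 2477). Across the 12643 genes the changes with and without VX680 had a Pearson r of 0.58 and a Spearman rho of 0.47, given as a description, since genes within a fit are not independent. The sizes differed. For the 1010 genes that rose at least 2-fold with 5azadC alone the median log2 change was 1.79 alone and 0.38 on top of VX680, where 206 of them rose and 13 fell. For the 731 that fell at least 2-fold alone the medians were -1.5 and -0.44, and 123 of them fell again while 1 rose. Both sets were chosen by their change with 5azadC alone, so part of their larger median there follows from that choice. The test of the difference itself, the interaction between the drugs, called 1967 genes. In 626 of them (4.95%) the 5azadC change was more positive with VX680 than without, and in 1341 (10.6%) it was more negative. Without 1 compared library the interaction calls came to 922 (VX680 replicate 1), 1089 (VX680 replicate 2), 1065 (combination replicate 1) or 1038 (combination replicate 2), and without untreated replicate 1 to 1234.

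**Figure D1:**
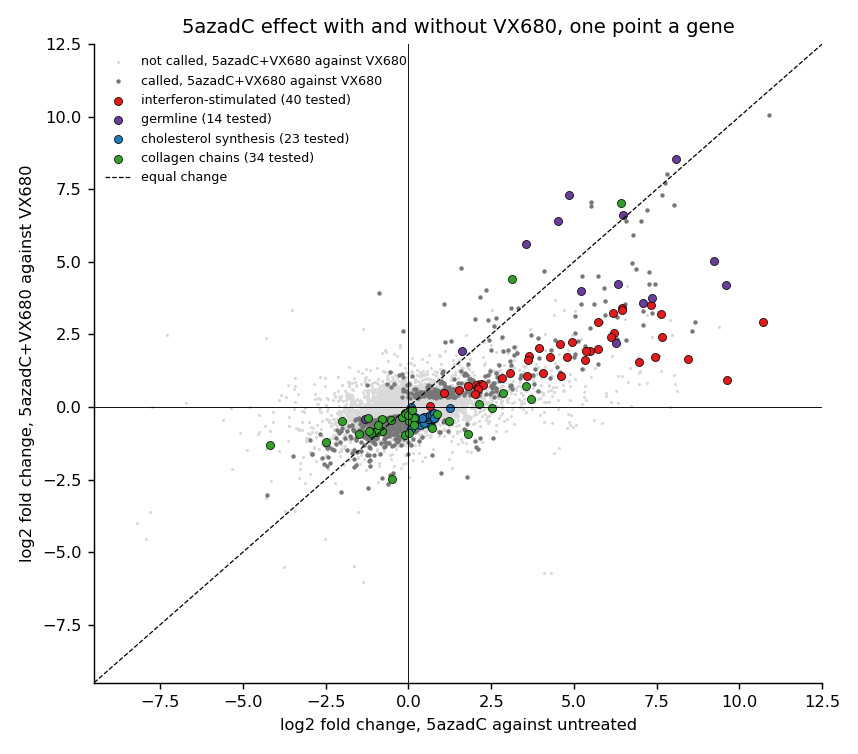
Log2 fold change of each tested gene with 5azadC against untreated (x axis) and with 5azadC+VX680 against VX680 (y axis); dark grey points are called on the y axis, coloured points are members of 4 gene lists, and the dashed line marks equal change. Interferon-stimulated genes lie below that line and above 0 (medians 4.70 and 1.68). Cholesterol synthesis genes lie right of 0 and at or below 0 on the y axis (medians 0.55 and -0.39). Where a compared group has few or no reads, the fitted value is not a bound.

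Interferon-stimulated genes encode the antiviral effectors and signalling proteins that type I interferon switches on. Of 40 tested, 26 rose and none fell on top of VX680, against 2.45% of all genes that rose, and their median change in log2 was 1.68. Isg15 encodes a small modifier that is joined to other proteins during the response. It stood at 10.1 and 8.52 CPM with VX680 and at 50.3 and 58.5 CPM with both drugs (log2 2.53 ± 0.28, adjusted p = 0.000281). Usp18, the protease that removes Isg15, went from 2.95 and 1.20 to 17.2 and 22.8 CPM (log2 3.19 ± 0.38, adjusted p = 0.000521). Ifit1, which binds foreign RNA ends, went from 12.4 and 11.5 to 54.3 and 58.2 CPM (log2 2.23 ± 0.27, adjusted p = 0.000535). In each of these genes both combination libraries lay above both VX680 libraries, and the call held without any 1 of the 4 libraries. Oasl1, a relative of the oligoadenylate synthetases, went from 0.785 and 2.26 to 16.3 and 14.6 CPM (log2 3.41 ± 0.49, adjusted p = 0.0015), a call lost without 1 of the 4 (adjusted p = 0.055).

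The whole list points the same way. All 40 tested members had a positive change, 36 with no overlap between groups. Of all 12643 genes 6286 had a positive change, and 3495 lay higher and 3580 lower without overlap. The CPM summed over the 42 genes of the list was 679 and 670 with VX680 against 1282 and 1361 with both drugs. The untreated libraries were at 510 and 491, and the 5azadC libraries, which stood far apart, at 4305 and 2278. With 5azadC alone all 40 had risen, with a median log2 change of 4.70, and in 32 of the 40 the interaction was called, each time negative (10.6% of all genes), with 21 to 25 such calls when 1 compared library was left out. So the rise was present but smaller in cells that also had VX680. Isg15 had risen by 6.22 ± 0.34 in log2 with 5azadC alone, 3.69 more than on top of VX680 (interaction adjusted p = 0.000239). Between 4 and 8 of the 40 stayed called when 1 compared library was left out, and 32 were called in the 4 compared libraries alone.

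Receptors that detect foreign nucleic acids form a group of their own, of which 3 of 19 tested rose and none fell (median log2 0.33), against 2.45% and 4.05% of all genes. All 3 belong to the family of cytoplasmic helicases that bind double-stranded or uncapped RNA, and they are interferon-inducible themselves. Dhx58 (LGP2) went from 4.61 and 3.20 to 17.2 and 21.3 CPM (log2 2.27 ± 0.33, adjusted p = 0.0018). Ifih1 (MDA5) went from 13.5 and 10.9 to 34 and 45.8 CPM (log2 1.70 ± 0.27, adjusted p = 0.0029), and Ddx58 (RIG-I) from 16 and 19.8 to 33.9 and 39.2 CPM (log2 1.04 ± 0.25, adjusted p = 0.024). Combination libraries were above VX680 libraries in all 3 genes. Dhx58 stayed called without any 1 compared library, Ifih1 in 2 of those 4 fits and Ddx58 in none (highest adjusted p = 0.26). Adar, which edits double-stranded RNA, had a log2 change of 0.45 ± 0.15 that was not called (adjusted p = 0.11).

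Of 18 genes of MHC class I antigen presentation 4 rose and none fell (2.45% and 4.05% of all genes), all 4 of them class I heavy chains, which carry peptides to the cell surface. H2-D1 went from 63.9 and 59.8 to 138 and 127 CPM (log2 1.09 ± 0.17, adjusted p = 0.0025). For H2-K1 the values were 32.2, 31.7, 62.1 and 55.6 CPM (log2 0.88 ± 0.20, adjusted p = 0.020). H2-T23 (log2 1.1 ± 0.25) and H2-Q4 (1.15 ± 0.28) had adjusted p = 0.019 and 0.028. These heavy chains share much sequence, so how reads were split among them is uncertain. With 5azadC alone 14 of the 18 had risen (22.6% of all genes), and for 10 the interaction was called, all negative (10.6%). H2-D1 stayed called in 1 of the 4 fits without a compared library and the others in none.

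Secreted signals moved with them in part: 3 of 16 inflammatory factors rose and 1 fell (2.45% and 4.05% of all genes). Ccl5 and Cxcl10 are chemokines for T cells, and Csf1 is the growth factor of macrophages. Ccl5 went from 0.491 and 0.799 to 6.89 and 4.69 CPM (log2 3.18 ± 0.56, adjusted p = 0.0051). Cxcl10 stood at 4.52, 4.13, 20.9 and 16 CPM (log2 2.09 ± 0.41, adjusted p = 0.0086), and Csf1 at 462, 442, 700 and 653 CPM (log2 0.58 ± 0.13, adjusted p = 0.019). Groups did not overlap for any of them. Cxcl12, a chemokine that stromal cells make at rest, fell from 75.6 and 70.0 to 49.2 and 43.7 CPM (log2 -0.65 ± 0.10, adjusted p = 0.0022). Of these, Cxcl12 stayed called in 2 of the 4 fits without a compared library, Ccl5 in 1 and the others in none. Leukocyte markers did not move with the chemokines: 0 of 3 tested were called, and their summed level was 24.4 and 26.0 CPM with VX680 and 31.6 and 25.7 CPM with both drugs.

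**Figure D2:**
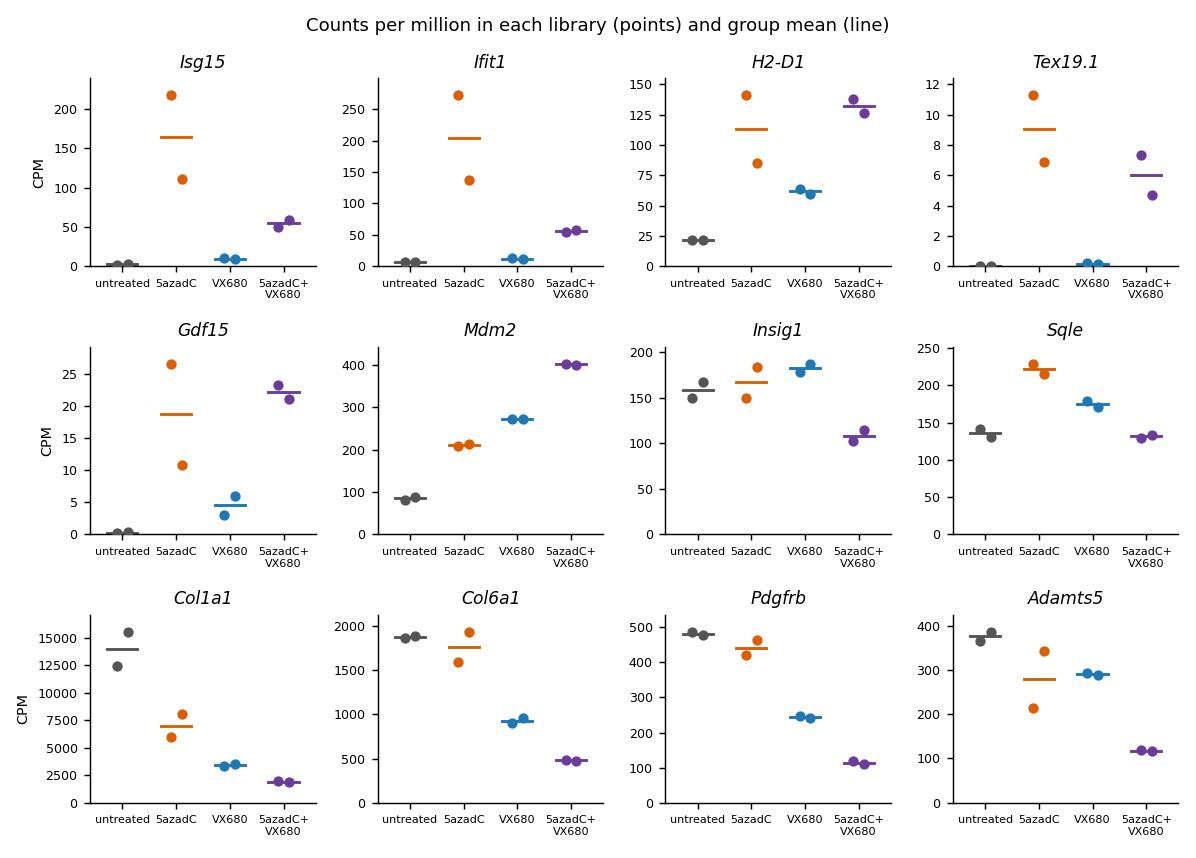
CPM of 12 genes in each of the 8 libraries (points) with the mean of each group (line), on linear axes that start at 0 and differ between panels. Isg15 and Ifit1 reach 50.3 to 58.5 CPM in the combination libraries, above both VX680 libraries and below both 5azadC libraries, while Mdm2 is highest in the combination and Insig1, Col1a1, Col6a1, Pdgfrb and Adamts5 lowest.

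Germline genes, many of which somatic cells silence by promoter methylation, rose in 10 of 14 tested cases, and none fell (2.45% of all genes rose). Another 15 of the 29 listed had too few reads to test, and since a silent gene can pass that filter only through a group in which it is high, the count does not describe all 29. The median log2 change was 4.21, or 3.78 with the 4 genes at 0 reads in VX680 set at their lower bound. Tex19.1, which protects germ cells and placenta from retrotransposons, stood at 0.196 and 0.133 CPM with VX680 (3 reads in all) and at 7.31 and 4.69 CPM with both drugs, 35.3-fold higher with a 95% counting interval of 11.7 to 175 (adjusted p = 0.00089). Tuba3b, a testis tubulin, had 0 reads with VX680 and 6.05 and 5.11 CPM with both, at least 32.9-fold higher against a floor of 3 reads over the group (adjusted p = 0.0019). It has a near-identical copy, Tuba3a, with which it may share reads. Dazl, an RNA-binding protein of germ cells, also had 0 reads with VX680 and reached 0.844 and 1.66 CPM, at least 7.39-fold higher (adjusted p = 0.029).

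Combination libraries lay above VX680 libraries for each of these. Sohlh2, a transcription factor of early germ cells, went from 0.196 and 0.266 to 4.64 and 4.42 CPM (log2 4.23 ± 0.72, adjusted p = 0.0040). Rps4l, which resembles the ribosomal protein gene Rps4x, may share reads with it and is typed as a pseudogene in the deposited table, went from 0.687 and 0.533 to 12 and 11.3 CPM (log2 4.20 ± 0.50, adjusted p = 0.00057). With 5azadC alone 12 of the 14 had risen (median log2 6.31; 22.6% of all genes) and 1 had fallen, and the interaction was called in none of the 14, which does not show that the 2 effects were equal, since 4 of the 14 had no read with VX680. Tex19.1, Tuba3b and Rps4l stayed called without any 1 compared library, Sohlh2 in 2 of those 4 fits and Dazl in none (adjusted p up to 0.22), and 3 to 4 list members stayed called per fit.

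The first 12 rises by log2 change include 4 of these germline genes, Tuba3b, Tex19.1, Sohlh2 and Rps4l. Apob, the structural protein of lipoproteins, went from 0.884 and 0.533 to 19.8 and 20.7 CPM (log2 4.76 ± 0.43, adjusted p = 7.82e-05). Igfbp6, a secreted protein that binds insulin-like growth factor 2, went from 3.14 and 2.80 to 42.0 and 33.5 CPM (log2 3.65 ± 0.34, adjusted p = 7.9e-05). These are genes of unrelated tissues. Tas1r1, a taste receptor, had 0.196, 0.266, 8.30 and 6.76 CPM (log2 4.96 ± 0.57, adjusted p = 0.000369), and the kidney peptidase gene Dpep1 0.589, 0.4, 8.86 and 5.66 CPM (log2 3.80 ± 0.51, adjusted p = 0.00097). Kcnh1, a potassium channel, had 0 reads with VX680 and 2.67 and 1.38 CPM with both, at least 11.9-fold higher (adjusted p = 0.044). Eps8l2, an actin regulator, and Pgm5, a structural relative of phosphoglucomutase, had log2 changes of 4.23 ± 0.61 and 4.10 ± 0.59, each with adjusted p = 0.0016. All 12 had risen with 5azadC alone. Among the 12 the interaction was called for Igfbp6 only, whose rise alone was larger by 2.27 in log2 (adjusted p = 0.027, or 0.047 to 0.133 without a compared library), though the interaction of Rps4l was close to the threshold (adjusted p = 0.0504). Apob, Igfbp6, Tas1r1 and Dpep1 stayed called without any 1 compared library, Eps8l2 and Pgm5 in 3 of the 4 fits and Kcnh1 in none.

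Of 11 epithelial genes tested 3 rose and none fell (2.45% and 4.05% of all genes), and the 3 were keratins of simple epithelia. Krt19 went from 21.7 and 22 to 45.0 and 49.4 CPM (log2 1.11 ± 0.18, adjusted p = 0.0031), and Krt18 from 1.37 and 1.73 to 8.58 and 10.3 CPM (log2 2.61 ± 0.55, adjusted p = 0.015). Krt8, the partner of Krt18 in the filament, had 3 reads with VX680 and 6.19 and 3.17 CPM with both drugs, 27.5-fold higher (95% counting interval 9.02 to 137, adjusted p = 0.014). The simple-epithelial keratin Krt7 was not called, at 2.95, 2.26, 3.23 and 2.62 CPM (adjusted p = 0.92). Grhl2, a transcription factor of epithelia, had 0.884, 0.4, 4.22 and 2.76 CPM (adjusted p = 0.081), and Krt80 7.85, 10.1, 14.9 and 19 CPM (adjusted p = 0.085), neither of them called and both without overlap between groups. All 11 tested had a positive change, 8 without overlap (6286 and 3495 of all 12643 genes). Another 11 of the 22 listed had too few reads to test. A near-silent gene passes that filter only through a group in which it is high. The counts thus do not describe all 22, and nothing is read from the direction of the low members. The whole list of 22 summed to 56.4 and 59.3 CPM with VX680 and to 119 and 123 CPM with both. Markers of basal and adherent epithelia were low: Krt5 had at most 1 read and Krt14 at most 3 in any of the 4 libraries, Epcam had 2, 4, 3 and 12 reads, and Cdh1 had 3, 2, 19 and 2. Krt19 stayed called in 1 of the 4 fits without a compared library, Krt8 and Krt18 in none (adjusted p up to 0.195 and 0.19).

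Targets of p53, the transcription factor that arrests damaged or polyploid cells, rose in 10 of 29 tested cases and fell in none (median log2 0.28), against 2.45% and 4.05% of all genes. Mdm2, the ligase that limits p53, was at 84.9 ± 5.09 CPM (SD, n = 2) in untreated cells, at 272 and 272 CPM with VX680 and at 403 and 400 CPM with both drugs (log2 0.56 ± 0.08, adjusted p = 0.0019). Gdf15, a stress-induced cytokine, went from 3.04 and 5.99 to 23.2 and 21.0 CPM (log2 2.32 ± 0.39, adjusted p = 0.0038). Pmaip1 (Noxa), which promotes apoptosis, stood at 26.7, 28.5, 42.0 and 44.8 CPM (log2 0.66 ± 0.15, adjusted p = 0.022), and Zfp365, which guards genome stability, at 113, 120, 168 and 172 CPM (log2 0.55 ± 0.12, adjusted p = 0.015). In all 4 the combination libraries were the higher ones. Across the list, DESeq2 called 11 of the 29 as rises, and limma on the deposited signal called 5. Cdkn1a (p21), the inhibitor of cyclin-dependent kinases, did not pass, at 356, 341, 400 and 407 CPM (log2 0.21 ± 0.08, adjusted p = 0.175). With only the 4 compared libraries in the edgeR fit its adjusted p was 0.016. With 5azadC alone 24 of the 29 had risen (22.6% of all genes), Cdkn1a by 2.78 ± 0.10, and in 20 the interaction was called, all negative (10.6% of all genes). Mdm2 stayed called in 3 of the 4 fits without a compared library and Gdf15 in 2, Pmaip1 and Zfp365 in none. Of the list, 0 to 2 were called in those fits.

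Few genes of the dividing cell were called. None of 42 mitosis and spindle genes was called by edgeR (median log2 0.03), against 6.50% of all genes. In that list 2 had an unadjusted p under 0.05, and DESeq2 and limma called 0. With only the 4 compared libraries, edgeR called 3 of the 42 higher and 1 lower, against 959 and 1098 of all 12643 genes. Of 41 replication genes 1 rose (2.44%, near the 2.45% of all genes), namely Rrm2, the small subunit of ribonucleotide reductase. It went from 276 and 269 to 387 and 352 CPM (log2 0.44 ± 0.09, adjusted p = 0.0092). Aurka and Aurkb, the kinases that VX680 inhibits, had log2 changes of -0.09 ± 0.10 (adjusted p = 0.66) and 0.08 ± 0.10 (adjusted p = 0.73). Among 69 clustered histone genes 1 was called (6.50% of all genes). A positive change was seen in 33 of the 41 replication, 28 of the 42 mitosis and 34 of the 69 histone genes (6286 of all 12643). Without overlap, 19, 15 and 15 of them were higher and 4, 5 and 20 lower (3495 and 3580 of all genes). Rrm2 was not called without 1 of the compared libraries in any of the 4 fits (adjusted p up to 0.14).

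Of the methylation machinery itself, 3 of 19 genes fell and none rose (4.05% and 2.45% of all genes). Dnmt1, the maintenance methyltransferase and target of 5azadC, stood at 623 and 641 CPM with VX680 and at 616 and 572 CPM with both drugs (log2 -0.09 ± 0.08, adjusted p = 0.61). Uhrf1, its recruiting partner (log2 0.14 ± 0.12, adjusted p = 0.55), Dnmt3a (-0.29 ± 0.09, adjusted p = 0.087) and Dnmt3b (0.29 ± 0.28, adjusted p = 0.63) were not called either. The 3 that fell were the methylcytosine oxidases Tet1 and Tet2 and the methyl-CpG binding protein Zbtb4. Tet1 went from 9.23 and 8.79 to 4.92 and 3.31 CPM (log2 -1.13 ± 0.31, adjusted p = 0.048) and Tet2 from 22.9 and 22.4 to 15.2 and 12.1 CPM (log2 -0.73 ± 0.16, adjusted p = 0.016). Zbtb4 changed by -0.37 ± 0.10 (adjusted p = 0.038). None of the 3 stayed called in any fit without a compared library. Among 12 genes of 5azadC uptake and metabolism, Cda, the cytidine deaminase that inactivates the drug, rose from 1.77 and 1.20 to 4.92 and 6.90 CPM (log2 1.96 ± 0.44, adjusted p = 0.018), and Nt5c2, a nucleotidase, fell (log2 -0.60 ± 0.14, adjusted p = 0.021). Nt5c2 stayed called in 1 fit without a compared library and Cda in none.

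**Figure D3:**
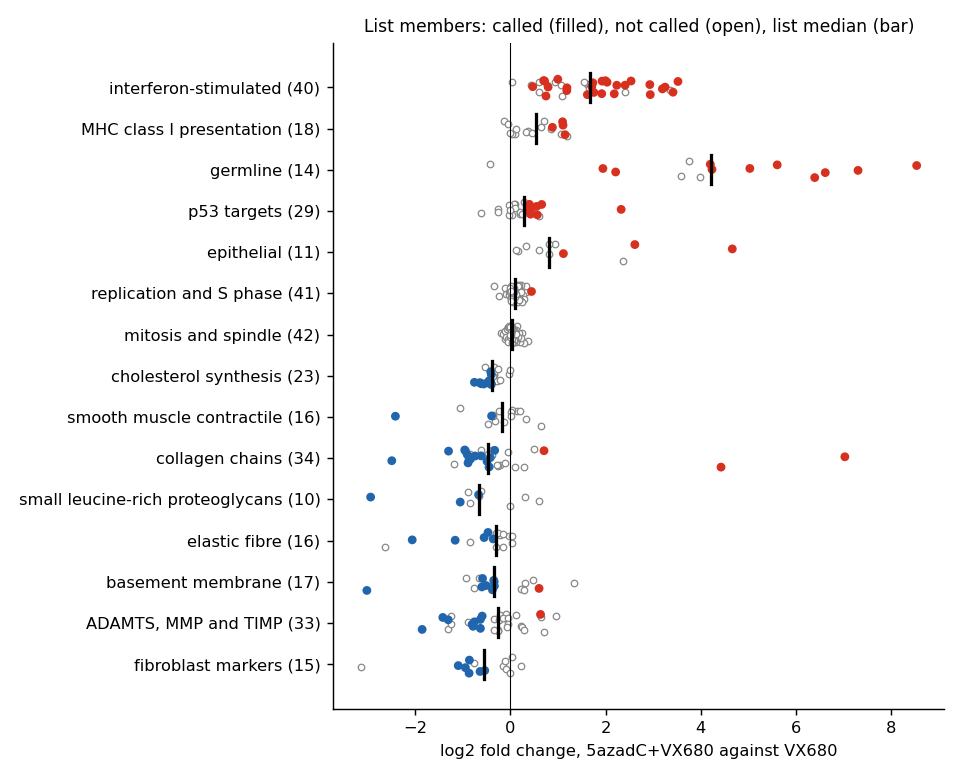
Log2 fold change with 5azadC+VX680 against VX680 of each tested member of 15 gene lists, with the number tested in brackets; filled points are called (red higher, blue lower), open points are not, and black bars are list medians. Called members lie right of 0 in the interferon, antigen presentation, germline, p53 and epithelial lists and mostly left of 0 in the cholesterol and matrix lists.

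Collagens and other extracellular matrix genes were among the falls. Of 34 collagen chains tested 15 fell and 3 rose (median log2 -0.47), against 4.05% of all genes that fell, and the CPM summed over the 44 listed chains went from 18405 and 19301 to 12348 and 12451. Both chains of type I collagen, the main fibre of skin and tendon, fell. Col1a1 stood at 3362 and 3520 CPM with VX680 and at 1929 and 1840 CPM with both drugs (log2 -0.87 ± 0.13, adjusted p = 0.0022), and Col1a2 at 2776, 2950, 1540 and 1609 CPM (log2 -0.86 ± 0.12, adjusted p = 0.0010). Untreated cells had 13989 ± 2207 CPM of Col1a1 and cells with 5azadC alone 7019 ± 1481 (SD, n = 2), so the combination was the lowest of the 4 groups. Type VI collagen, which forms beaded filaments around cells, fell too: Col6a1 from 905 and 956 to 482 and 474 CPM (log2 -0.96 ± 0.10, adjusted p = 0.00016) and Col6a3 from 918 and 894 to 516 and 496 CPM (log2 -0.84 ± 0.10, adjusted p = 0.000335). Col6a1 differed from type I collagen in what 5azadC did alone, a log2 change of -0.09 ± 0.10 that was not called (interaction -0.87, adjusted p = 0.000888). Col1a2, Col6a1 and Col6a3 stayed called without any 1 compared library and Col1a1 in 3 of the 4 fits (adjusted p up to 0.066). Between 3 and 5 of the 34 chains stayed called as falls per fit.

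Elastic fibres and the enzymes that cross-link them showed 5 falls and no rise among 16 genes (4.05% and 2.45% of all genes, as for the matrix lists that follow). Fbn2, a fibrillin of developing fibres, dropped from 69.3 and 73.0 to 17.7 and 16.3 CPM (log2 -2.06 ± 0.30, adjusted p = 0.0016). Fbln5, which places elastin on the fibre, went from 238 and 261 to 107 and 116 CPM (log2 -1.16 ± 0.20, adjusted p = 0.0044), and Fbn1, the main fibrillin, from 411 and 426 to 276 and 295 CPM (log2 -0.55 ± 0.09, adjusted p = 0.0041). With 5azadC alone Fbn1 had not passed the test (log2 -0.00 ± 0.09, adjusted p = 0.99; interaction adjusted p = 0.013, or 0.046 to 0.080 without a compared library). Lox, the oxidase that cross-links collagen and elastin, fell from 747 and 688 to 357 and 334 CPM (log2 -1.05 ± 0.11, adjusted p = 0.000234), and its relative Loxl1 from 985 and 909 to 629 and 569 CPM (log2 -0.66 ± 0.12, adjusted p = 0.0054). In the list of collagen processing enzymes 4 of 18 fell and 1 rose. Lox stayed called without any 1 compared library, Fbn2 in 3 of the 4 fits and Fbn1, Fbln5 and Loxl1 in none.

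Small proteoglycans that bind collagen fibrils followed, with 3 falls among 10 tested. Aspn (asporin) stood at 17.9 and 18.6 CPM with VX680 and at 2.39 and 2.35 CPM with both drugs (log2 -2.94 ± 0.43, adjusted p = 0.0016), after 281 ± 47.9 CPM in untreated cells (SD, n = 2). Bgn (biglycan) went from 796 and 697 to 477 and 462 CPM (log2 -0.67 ± 0.12, adjusted p = 0.0048) and Fmod (fibromodulin) from 9.03 and 7.99 to 4.50 and 3.73 CPM (log2 -1.05 ± 0.27, adjusted p = 0.035). Basement membranes lost transcripts of several components, 8 falls and 1 rise among 17. Hmcn1 (hemicentin) had the largest fall of all genes the naming rule admits, from 10.6 and 11.1 to 0.703 and 1.93 CPM (log2 -3.02 ± 0.65, adjusted p = 0.014). Lamb2, a laminin chain (log2 -0.51 ± 0.10, adjusted p = 0.0095), and Nid2, which links laminin to collagen IV (-0.59 ± 0.13, adjusted p = 0.019), fell less. Npnt (nephronectin), an integrin ligand, rose from 31.1 and 28.6 to 44.1 and 46.6 CPM (log2 0.60 ± 0.13, adjusted p = 0.012). Only Aspn of these held without any 1 compared library. No basement membrane fall was called in any of those 4 fits, and 10 were in the 4 compared libraries alone.

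Of 33 matrix proteases and their inhibitors 9 fell and 1 rose. Adamts5, an aggrecan-cleaving protease, went from 294 and 289 to 119 and 117 CPM (log2 -1.31 ± 0.16, adjusted p = 0.000551). Adamts12 went from 50 and 45.7 to 13.5 and 13 CPM (log2 -1.86 ± 0.29, adjusted p = 0.0025), and the membrane-bound collagenase Mmp14 from 719 and 649 to 406 and 377 CPM (log2 -0.81 ± 0.10, adjusted p = 0.000564). Each gene was lower in both combination libraries, and 3 to 8 of the falls in this list stayed called per fit without a compared library, Adamts5 and Mmp14 in all 4 and Adamts12 in 2. For Adamts5 the fall on top of VX680 was larger than that with 5azadC alone (-0.43 ± 0.15; interaction adjusted p = 0.017), a difference called in none of the 4 fits without a compared library (0.063 to 0.078).

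Other genes that the naming rule takes for their fall do not form a list. Pdgfrb, the receptor for platelet-derived growth factor on fibroblasts and pericytes, went from 248 and 241 to 118 and 111 CPM (log2 -1.1 ± 0.09, adjusted p = 4.09e-05). It had not passed the test with 5azadC alone (log2 -0.12 ± 0.09, adjusted p = 0.27), and the difference did (interaction -0.97, adjusted p = 0.000202). Sfrp2, a secreted modulator of Wnt signals, went from 467 and 459 to 77.5 and 68.0 CPM (log2 -2.67 ± 0.42, adjusted p = 0.0025). With 5azadC alone its log2 change was -0.61 ± 0.38 (adjusted p = 0.215), with the 5azadC libraries far apart, at 449 ± 374 CPM (SD, n = 2). The interaction had adjusted p = 0.023, but DESeq2 did not call it (adjusted p = 0.108) and neither did any of the 4 fits without a compared library (0.071 to 0.109). Lgr5, a receptor for R-spondins that strengthens Wnt signals, went from 18.7 and 14.4 to 2.53 and 2.21 CPM (log2 -2.80 ± 0.49, adjusted p = 0.0048), and Cxxc4, an intracellular Wnt antagonist, from 8.54 and 6.39 to 1.69 and 2.07 CPM (log2 -1.99 ± 0.40, adjusted p = 0.0099). Abi3bp, a matrix protein, fell from 51.4 and 42.6 to 8.72 and 9.80 CPM (log2 -2.35 ± 0.29, adjusted p = 0.000564; interaction adjusted p = 0.0049). The groups do not overlap in any of these genes. Zbtb16 (PLZF), a zinc finger repressor, dropped by 2.05 ± 0.36 in log2 (adjusted p = 0.0051), and Col25a1, Veph1 and Megf6, low genes with under 6 CPM in every VX680 library, had log2 changes of -2.49, -2.28 and -2.04 (adjusted p = 0.018, 0.022 and 0.049). Pdgfrb and Abi3bp stayed called without any 1 compared library, Sfrp2 and Zbtb16 in 2 fits, Lgr5 and Cxxc4 in 1 and the last 3 in none.

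Fibroblast markers as a list had 6 falls and no rise among 15 (4.05% and 2.45% of all genes). Their summed level was 18806 and 19088 CPM with VX680 and 16316 and 15721 CPM with both drugs. The 6 were the collagen chains Col1a1, Col1a2 and Col3a1, the matrix protein Postn, the receptor Pdgfrb and the mesenchymal transcription factor Prrx1. Vim, the intermediate filament protein, was not called (log2 0.23, adjusted p = 0.16), and neither were Thy1 and S100a4 (adjusted p = 0.95 and 0.92). Between 2 and 4 of the falls stayed called per fit without a compared library.

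Cholesterol synthesis and uptake genes, which the transcription factor Srebf2 drives when sterols are low, turned around between the 2 settings. None of 23 had a positive change on top of VX680 and 10 fell (median log2 -0.39; 4.05% of all genes fell), whereas 17 had risen and none had fallen with 5azadC alone (median 0.55; 22.6% of all genes rose). The interaction was called in 18, all negative (10.6% of all genes), and 8 genes were called in opposite directions. Insig1, a protein that holds back Srebf2, went from 178 and 188 to 102 and 114 CPM (log2 -0.76 ± 0.11, adjusted p = 0.0019). With 5azadC alone it was not called (0.08 ± 0.11, adjusted p = 0.61). Lss, which closes the sterol rings, went from 147 and 151 to 91.4 and 103 CPM (log2 -0.62 ± 0.10, adjusted p = 0.0024), after a rise of 0.35 ± 0.09 alone. Nsdhl, an X-linked enzyme of the pathway, had 78.7, 77.5, 47.8 and 52.3 CPM (log2 -0.64 ± 0.10, adjusted p = 0.0025; alone 0.68 ± 0.10), and Acat2, which joins acetyl groups at the start of it, 95.1, 94.8, 60.0 and 68.6 CPM (log2 -0.56 ± 0.10, adjusted p = 0.0051; alone 0.48 ± 0.10). VX680 libraries were above combination libraries without overlap in 20 of the 23 genes (3580 of all 12643 genes). Insig1 and Lss stayed called in 3 of the 4 fits without a compared library, Nsdhl in 2 and Acat2 in 1. Of the list 0 to 4 were called in those fits and 17 in the 4 compared libraries alone.

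Of 16 smooth muscle contractile genes 13 had risen and 2 had fallen with 5azadC alone (22.6% and 19.6% of all genes). On top of VX680 none rose and 2 fell (2.45% and 4.05%), and 12 had a negative interaction (10.6%). Acta2, the actin of smooth muscle and activated fibroblasts, went from 1303 and 1255 to 975 and 968 CPM (log2 -0.40 ± 0.10, adjusted p = 0.038) after a rise of 0.74 ± 0.10 alone. Myh11, the smooth muscle myosin, went from 3.14 and 2.13 to 0.562 and 0.414 CPM (log2 -2.42 ± 0.58, adjusted p = 0.026), after a rise of 1.78 ± 0.57. Neither stayed called without a compared library.

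**Figure D4:**
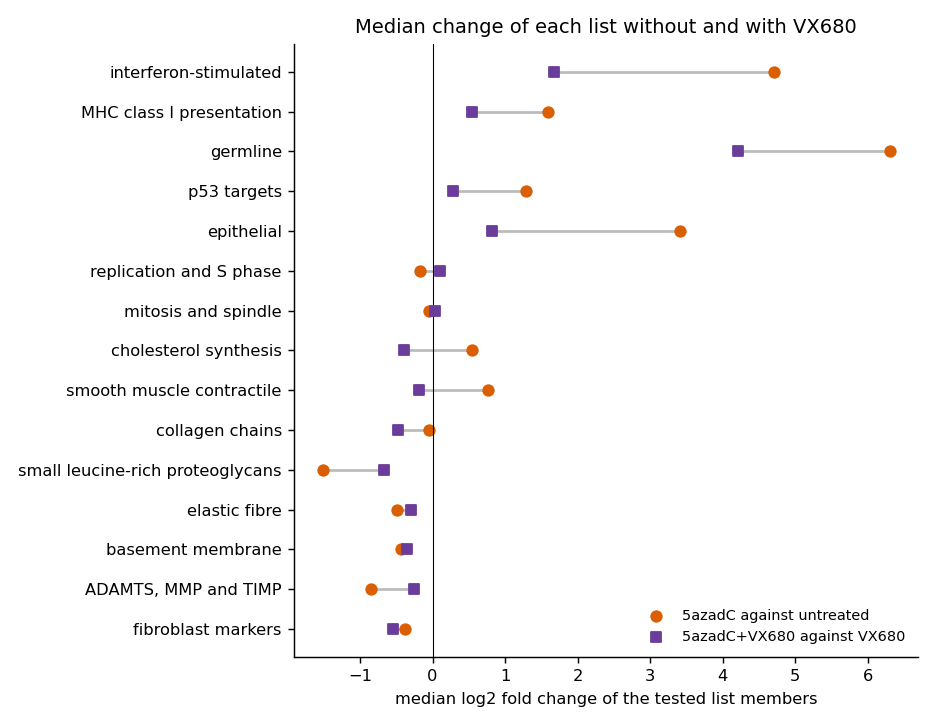
Median log2 fold change over the tested members of 15 gene lists, with 5azadC against untreated (orange circles) and with 5azadC+VX680 against VX680 (purple squares), joined by a grey line for each list. The medians of the cholesterol list (0.55 and -0.39) and the smooth muscle list (0.77 and -0.18) change sign, while the interferon list goes from 4.70 to 1.68.

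Among the widest interactions, by the rule that ranks called genes by size, were genes that 5azadC alone had driven to an extreme. Cd80, a co-stimulatory ligand, and St14, an epithelial membrane protease, had 0 reads in untreated cells and means of 4.15 and 4.02 CPM with 5azadC, at least 25.2-fold and 23.4-fold higher. With VX680 they were already present, Cd80 at 3.04 and 3.20 CPM and St14 at 5.40 and 7.72 CPM, and the combination values of 4.08 and 5.11 CPM and of 8.44 and 14.2 CPM were not called higher (adjusted p = 0.47 and 0.21). In the other direction, Adamts17, a secreted protease, fell by 5.09 ± 0.27 in log2 with 5azadC alone, from 110 ± 6.33 to 3.36 ± 2.23 CPM (SD, n = 2). VX680 libraries held only 2.45 and 2.80 CPM of it and combination libraries 1.97 and 0.828 CPM (adjusted p = 0.34, interaction adjusted p = 0.0011). Enpp2 (autotaxin), which makes lysophosphatidic acid, behaved likewise, at 21.2 CPM on average untreated and 1.41 with 5azadC, against 2.75, 2.53, 3.37 and 3.73 CPM in the 4 compared libraries. Ptchd1, Sncaip, Ramp2 and Sorbs2, with positive interactions, and Oas3, Oas1a and the histone pair Hist1h2bq and Hist1h2br, with negative ones, complete the 12 genes that the rule names. Each has a group mean under 1 CPM in at least 1 of the 4 groups, and the 2 histone genes, which may share reads, had 15.2 CPM in VX680 replicate 1 against 0.533 CPM in replicate 2, and 15.4 and 15.3 CPM in 5azadC replicate 1 against 0.274 CPM in replicate 2. For Hist1h2bq the interaction adjusted p was 0.305 without VX680 replicate 1 and 0.377 without 5azadC replicate 1, and for Hist1h2br 0.314 and 0.388.

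X-linked genes, the readout that the study's title names, were called in total level about as often as all genes. Of 404 tested 11 rose and 16 fell, or 2.72% and 3.96%, near the 2.45% and 4.05% of all genes. Msn, which encodes moesin, a link between membrane and actin, had 995, 984, 1189 and 1169 CPM (log2 0.25 ± 0.09, adjusted p = 0.14). Xist, the RNA that coats the inactive X chromosome, had 357, 378, 426 and 429 CPM (log2 0.22 ± 0.08, adjusted p = 0.15). With only the 4 compared libraries in the fit, edgeR called both (adjusted p = 0.0014 for Msn and 0.013 for Xist). In the fit over all 8 libraries both were higher in the combination libraries without passing the test. Hprt (log2 0.31 ± 0.19), G6pdx (-0.14 ± 0.11) and Pgk1 (-0.47 ± 0.45), housekeeping enzymes on the X chromosome, were not called either (adjusted p = 0.40, 0.52 and 0.61). Of the 11 rises, given here whatever the naming rule, 9 were genes with a mean under 1 CPM with VX680, among them Tex13, Gm364, Taf7l, Trap1a, 4930550L24Rik, Gm9, Otud6a and Was. The other two were Timp1 and Slc25a5. Of 21 regulators of X inactivation 0 were called by edgeR over all 8 libraries, by DESeq2 or by limma. Among them 3 had an unadjusted p under 0.05. With only the 4 compared libraries, edgeR called 2 of the 21 higher and 1 lower, against 959 and 1098 of all 12643 genes.

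Allelic reads show which X chromosome the transcripts came from. In these cells 90.6% and 93.2% of the allelic Xist reads with VX680 were mus, whereas the other X-linked genes were read mainly from the cas allele. Pooled over 277 X-linked genes other than Xist, the mus share was 4.84% (95% exact binomial interval 4.63 to 5.06%) and 4.96% (4.72 to 5.21%) with VX680, and 5.74% (5.46 to 6.03%) and 5.8% (5.52 to 6.08%) with both drugs. The intervals cover counting error only. Untreated libraries had 4.01% and 4.05%, and 5azadC libraries 5.26% and 4.89%. The mean difference between combination and VX680 was 0.868 percentage points, larger than the SDs of 0.0856 and 0.0411 within groups (n = 2). An exact permutation test of 2 against 2 gives p = 0.333 two-sided, the smallest it can give. Leaving out any 1 of the 4 libraries moved the difference between 0.808 and 0.929 points. Without Msn it was 0.752 points. Msn contributed 0.237, Slc25a5 0.161 and Ddx3x 0.103 points, the largest contributions among the 277 genes. The pooled share is weighted by reads, so changes in total level can move it as well, which was not tested. The difference between the medians over genes of the mus share was 0 points. By gene, 106 of the 277 contributed to the pooled difference upwards and 81 downwards, and 90 had no mus read in any of the 4 libraries.

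Of the 10301 genes with enough allelic reads, 13 (0.126%) changed their mus to cas ratio in the edgeR test, and 494 had an unadjusted p under 0.05. Msn and Xist are the X-linked ones. Msn had 25 mus and 2284 cas reads (1.08% mus) and 20 and 1711 (1.16%) with VX680, and 85 and 1771 (4.58%) and 76 and 1846 (3.95%) with both drugs. Its log2 ratio rose by 1.97 ± 0.26 (adjusted p = 1.01e-05), and the call held without any 1 compared library (adjusted p up to 0.004). For Xist the mus share was 90.6% and 93.2% with VX680 and 81.7% and 88.6% with both (log2 ratio -0.94 ± 0.21, adjusted p = 0.034). That call rests on 2 libraries: without VX680 replicate 2 the adjusted p was 0.92 and without combination replicate 1 it was 0.995. Hprt, which had 4, 0, 0 and 0 mus reads, and G6pdx, with mus shares of 13.1%, 4.82%, 16% and 15.3%, were not called (adjusted p = 0.99 for both).

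Among the 11 autosomal genes Lox is the one that stayed called without any 1 compared library: its mus share was 45.8% and 44.6% with VX680 and 37.6% and 35.4% with both drugs (log2 ratio -0.52 ± 0.08, adjusted p = 5.31e-05), beside the fall in its total level. Hist1h2bb, Hist1h2bf, Hist1h2bg, Hist1h2bh and Hist1h2bn are near-identical histone genes, so the assignment of their reads to a gene and an allele is uncertain. Hist1h2bh, for instance, had 99.1% and 100% mus reads with VX680 and 2.11% and 66.7% with both drugs, the last from 4 mus and 2 cas reads. Ankrd1, Hmgn1, Prpf4b, Srsf7 and Tep1 are the others, and each lost its call in 3 or all of the 4 fits without a compared library.

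**Figure D5:**
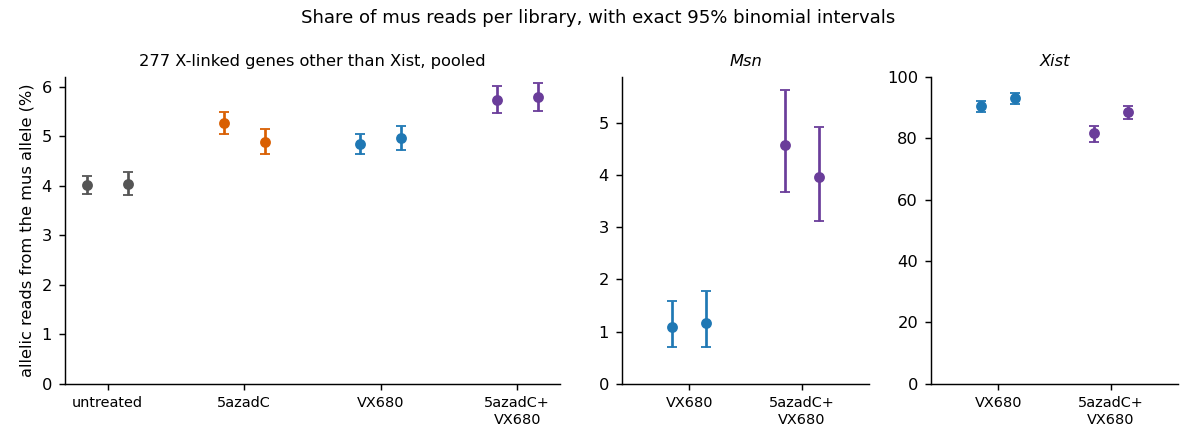
Share of allelic reads from the mus allele in percent, 1 point per library with its exact 95% binomial interval, for 277 X-linked genes pooled without Xist in all 8 libraries (left) and for Msn and Xist in the 4 compared libraries. The pooled share is 5.74% and 5.8% in the combination libraries, above 4.84% and 4.96% with VX680; Msn is higher and Xist lower in both combination libraries.

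Imprinted genes, read from 1 parental allele under the control of DNA methylation, had 2 falls and no rise among 22 tested, a count too small to set apart from the 4.05% of all genes that fell. H19, a non-coding RNA expressed from the maternal allele, stood at 7.76 and 9.85 CPM with VX680 and at 1.55 and 2.07 CPM with both drugs (log2 -2.27 ± 0.38, adjusted p = 0.0036). The combination was thus near the untreated mean of 2.21 CPM, while with 5azadC alone the log2 change had been 0.99 ± 0.38 (adjusted p = 0.051), and the difference between the 2 effects was called (adjusted p = 0.0013). Trappc9, the other member that fell, changed by -0.68 ± 0.15 (adjusted p = 0.015). H19 stayed called in 2 of the 4 fits without a compared library and Trappc9 in 1.

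Marker lists of other cell types gave 2 calls. Of 5 chondrocyte markers tested Sox9, a transcription factor of cartilage, rose from 6.19 and 4.53 to 13.2 and 8.83 CPM (log2 1.02 ± 0.25, adjusted p = 0.027), while Acan and Hapln1 had no read in the 4 libraries. Of 4 adipocyte markers Lpl, the lipoprotein lipase, fell from 62.2 and 64.6 to 34 and 39.7 CPM (log2 -0.78 ± 0.19, adjusted p = 0.027). Sox9 stayed called in 1 fit without a compared library and Lpl in none. Of 5 endothelial, 5 skeletal muscle, 3 leukocyte and 2 melanocyte markers tested, 0 were called by edgeR over all 8 libraries or by DESeq2. At an unadjusted p under 0.05 were 2, 0, 0 and 1 of them. With only the 4 compared libraries, edgeR called 2 endothelial markers lower and 1 skeletal muscle marker higher.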

How the data were processed

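Expression was analysed from 8 libraries in 4 groups of 2. Of the deposited tables, the composite one lists raw counts for 24421 genes, and another holds counts assigned to the mus or cas allele. The deposited normalized signal equals the counts times 1 factor per library and served as an alternative. Per the submitters' processing notes the build was mm9 and the tools TopHat2 2.0.10, HOMER 4.8 and edgeR, with no roles given. Groups came from the sample labels.

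Counts were filtered with filterByExpr (12643 genes kept), scaled by TMM and fitted with edgeR 4.0.16 in R 4.3.3, 1 mean per group over all 8 libraries (4 residual degrees of freedom), with quasi-likelihood tests of combination minus VX680, 5azadC minus untreated and their difference (the interaction). Allelic ratios were tested with edgeR on 10301 genes with at least 10 allelic reads per library on average, with a library term. Genes at 0 reads in VX680 were compared with a floor of 3 reads over the group, and 1 to 3 reads carry a 95% counting interval; intervals and floors cover counting error only.

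Named genes are the first 12 rises and 12 falls by log2 change among called genes averaging at least 1 in log2 CPM and without overlap, up to 4 members per list by p, the first 6 interactions each way at that level, and fixed genes (such as Dnmt1, Xist, Aurka). Any gene outside this rule was chosen after its value was seen. One gene that the rule takes is not reported here. Members and lists were chosen with earlier results of these data known. The models were tested on simulated data, where the share of false calls came out above the threshold set, so calls near it deserve caution. Alternatives were DESeq2 1.42.0, its size factors, limma 3.58.1 on the signal, other filters, a replicate block and leaving out libraries. Promoter sequences were not used here, and since the reference follows another build no coordinates are given.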

Additional observations from a re-analysis of the deposited data

Results flagged for a closer look

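The effect of 5azadC with VX680 differed from its effect without VX680 in 1967 genes by the interaction test (edgeR, adjusted p under 0.05), 76 of them among the 147 genes that the text names. Values below are the effect with VX680 minus the effect without it, in log2. The largest adjusted p among the 76 was 0.048. The calls of Dnmt3a, Malat1, Krt18, Cebpa, Eng and Lpl, among others, were lost whenever 1 compared library was left out. For Dnmt3a the adjusted p was 0.040 with edgeR, 0.0503 with DESeq2 and 0.060 with a replicate block in edgeR.

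Interferon-stimulated, sensing and antigen presentation genes were more negative with VX680: -3.69 for Isg15, -4.45 for Usp18, -2.71 for Ifit1, -7.78 for Oas3, -8.68 for Oas1a, -2.85 for Dhx58, -2.25 for Ifih1, -1.65 for Ddx58, -1.18 for Adar, -1.29 for H2-D1, -1.85 for H2-K1 and -1.94 for H2-Q4. Oas3 and Oas1a had no read in untreated cells, so their fitted values are no bounds. Of the secreted factors, Cxcl10 had -3.25 and Csf1 -0.85, while Cxcl12 had 1.14. p53 targets gave -2.57 for Cdkn1a, -3.98 for Gdf15, -0.75 for Mdm2, -1.98 for Pmaip1 and -2.10 for Zfp365.

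Sterol genes gave -0.83 for Insig1, -0.96 for Lss, -1.33 for Nsdhl and -1.04 for Acat2, and contractile genes -1.13 for Acta2 and -4.20 for Myh11. Epithelial genes gave -5.95 for Krt18, -2.30 for Krt19, -2.83 for Krt80 and -7.25 for St14. Matrix genes went both ways, with -0.87 for Col6a1, -0.87 for Adamts5, -0.55 for Fbn1, -0.76 for Loxl1 and -1.80 for Abi3bp against 0.68 for Lox, 0.76 for Npnt, 1.06 for Postn and 4.19 for Adamts17. Among growth regulators and fibroblast markers the values were -0.97 for Pdgfrb, -2.06 for Sfrp2, -2.27 for Igfbp6, -0.89 for Thy1 and -0.46 for Vim.

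X-linked genes gave -1.28 for Msn, -1.32 for Hprt, -0.62 for G6pdx, -0.99 for Slc25a5, -0.73 for Timp1 and 1.13 for Xist, and methylation genes 0.42 for Dnmt3a and 1.83 for Tet1. RNA composition differed as well, by 0.80 for Rn45s and 0.51 for Malat1. Markers of other cell types gave -1.17 for Acta1, 0.60 for Cebpa, -0.52 for Eng and -1.78 for Flt1. The remaining values were 6.66 for Ptchd1, 5.16 for Sncaip, 4.45 for Ramp2, 4.40 for Sorbs2, 4.28 for Enpp2, 1.18 for Sox9, 0.88 for Lpl, -3.26 for H19, -2.53 for Ankrd1, -7.56 for Cd80, -10.02 for Hist1h2bq and -9.83 for Hist1h2br. In both histone genes VX680 replicate 1 and 5azadC replicate 1 stood far above their partners, and without either library the interaction was not called. Genes called in opposite directions with and without VX680 gave -3.56 for Wisp2, -2.37 for Itga11, -1.81 for Apcdd1, -3.24 for Kif26b, -3.63 for Inhbb and 2.01 for Sema3c.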

How the results depend on the processing

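Calls of combination against VX680 depended most on which libraries were in the fit. Against 822 genes called (310 higher, 512 lower), the fit without a filter on low counts gave 1299 (514 and 785, with 153 of the falls at least 2-fold), and the 4 compared libraries alone gave 2057 (959 and 1098). Leaving out each library in turn gave 99 to 1545 calls, 21 to 640 higher, 78 to 913 lower, 20 to 185 higher at least 2-fold and 36 to 143 lower at least 2-fold. The interaction calls ranged from 922 to 2748 in those fits. DESeq2 called 767 genes, edgeR with its size factors 807, limma on the deposited signal 772 and a stricter filter 800. No gene called in the combination against VX680 changed sign in these alternatives. Of 88 called genes that the naming rule takes, 22 were called without any 1 of the 4 compared libraries and 38 in none of those 4 fits.

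Replicate numbers are shared between groups, and the differences between replicates correlated at -0.0622 to 0.0326 between groups. Such correlations over all genes can miss a batch that acts on few genes. The labels do not say whether libraries with the same number share a batch. With a replicate block 792 genes were called (293 higher, 499 lower; 140 and 104 at least 2-fold), 746 of them among the 822, with 1818 interaction calls and 2 X-linked allelic calls.

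X-linked allelic calls numbered 2, and 1 with a minimum of 20 mean allelic reads, with 1 to 3 when a library was left out. The pooled mus share difference of 0.868 points was 0.704 without the 3 X-linked genes with most allelic reads, 0.752 without Msn (added after the data were seen) and 0 as a median over genes, and 0.808 to 0.929 without 1 library. Allelic ratios of Hist1h2bf (-5.83 to 1.15 over the fits without a library, highest without combination replicate 1) and Hist1h2bg (-4.70 to 2.31, highest without VX680 replicate 1) changed sign; the cause was not tested. With 6908503 to 9862392 reads in the compared libraries, genes under 1 CPM rest on few reads.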

Other observations

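Among the 822 genes called on top of VX680, 47 had been called in the opposite direction with 5azadC alone: 44 had risen alone and fell here, and 3 had fallen alone and rose here. Having been chosen for opposite calls, the 47 differ between the 2 settings by that choice. The number was 5 to 12 without 1 of the 4 compared libraries, 112 and 102 without 5azadC replicate 1 and 2, and 87 without a filter on low counts. The first 5 falls by p outside the naming rule are given, chosen after their values were seen. Wisp2, a secreted matricellular protein of mesenchymal cells, went from 57.3 and 57.4 CPM with VX680 to 17.4 and 24.4 CPM with both drugs (log2 -1.45 ± 0.16, edgeR adjusted p = 0.000234), after a rise of 2.11 alone. Itga11, a collagen-binding integrin of fibroblasts, went from 54.1 and 57.7 to 17.4 and 18.2 CPM (log2 -1.65 ± 0.20, adjusted p = 0.000564; 0.72 alone). Kif26b, a kinesin relative that acts in non-canonical Wnt signalling, stood at 21.9, 24.9, 11.2 and 10.8 CPM (log2 -1.08 ± 0.14, adjusted p = 0.000653; 2.16 alone). Apcdd1, a membrane inhibitor of Wnt signals, had a log2 change of -0.86 (adjusted p = 0.000593). These 4 stayed called without any 1 compared library.

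Inhbb, a subunit of activin B, fell from 62.3 and 57.0 to 29.1 and 27.6 CPM (log2 -1.07 ± 0.16, adjusted p = 0.0019; 2.56 alone), and its call held in 2 of the 4 fits. Of the 3 rises, Sema3c, a secreted semaphorin, had the lowest p: it went from 40.7 and 46.3 to 73.3 and 74.5 CPM (log2 0.77 ± 0.14, adjusted p = 0.0051; -1.25 alone), a call that held in 1 of the 4 fits. In each of these genes the combination and VX680 libraries did not overlap.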
